A study of Mus musculus with 12 samples.

Results

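The genes described here are 40 mouse genes that build ribosomes in the nucleolus. The list is defined by gene symbol and applies no measured value, though it was drawn up with earlier results of these data known, and all 40 were found among the 23420 genes of the count table. A test of differential expression was made on 11664 genes that passed a filter on low counts, and 39 of the 40 genes were among them. The gene left out was Gar1, which had no read in any control kidney.

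RNA was sequenced from 12 kidneys of male C57BL/6J mice, with 4 kidneys in each of 3 groups. The controls were kidneys taken at nephrectomy from animals of the same strain and sex. The 8 ischemic kidneys had their pedicle clamped for 20 min and were collected 24 h later. The mice were 8 to 15 weeks old. They were either conscious or under anaesthesia while a remotely closed clamp was in place, and were kept in an incubator at 34 °C meanwhile. The titles of the ischemic samples and their group field contradict each other on which mice were awake, so the 4 kidneys titled ISCH_ANESTH (group field ISCHEMIA conscious) are called arm A and the 4 titled ISCH_CONCIOUS (group field ISCHEMIA anesthesia) are called arm B. No difference between the arms was therefore assigned to anaesthesia. Labels that are common to all samples give the clamping and the 24 h also for the controls, which the methods describe as normal kidneys. In the methods, surgery to place the clamp came before ischemia, with removal of the right kidney where nephrectomy was done. None of the 3 groups is described as having this surgery without clamping. The effects of surgery, loss of the other kidney and ischemia can therefore not be told apart, and "after ischemia" below covers all of them. The left kidney was the one clamped, so if the controls were excised right kidneys, side cannot be told apart either.

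Ribosomes are assembled in the nucleolus. RNA polymerase I transcribes a long precursor that is cut and modified into the 18S, 5.8S and 28S ribosomal RNAs, guided by small nucleolar ribonucleoprotein particles (snoRNPs). Box C/D snoRNPs direct ribose methylation through fibrillarin, and box H/ACA snoRNPs direct pseudouridylation through dyskerin. Many helicases, GTPases and scaffold proteins then fold the precursor into the small and the large subunit. The transcription factor MYC is a well known activator of these genes, and a cell that prepares to grow or divide makes more ribosomes. In a kidney injured by ischemia, surviving tubular cells are known to re-enter the cell cycle and to replace lost neighbours.

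The promoters of 8 of these genes are shown to give the letters near the start of genes that passed the test described below and of genes that did not pass it. A promoter entry in RefSeq (mouse build GRCm38.p6) was found for 36 of the 40 genes, and Npm1, Fbl, Bop1 and Rrs1 had none. Each sequence is a 130-base stretch on the strand of the gene, with 100 bases before the transcription start and 30 bases from it. The first 4 are the promoters of Nop58, Nop56, Ncl and Ddx21, the genes with a promoter entry that had the smallest p-values or largest rises described further on, chosen after their values were seen. The other 4 are the stretches that hold the E-box CACGTG, the letters recognised by MYC and its partner MAX, which are printed in capitals.
Nop58 (chr1:59684906-59685035, plus strand): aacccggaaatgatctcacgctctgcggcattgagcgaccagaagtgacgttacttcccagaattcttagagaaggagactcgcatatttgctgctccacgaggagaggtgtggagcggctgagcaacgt
Nop56 (chr2:130274312-130274441, plus strand): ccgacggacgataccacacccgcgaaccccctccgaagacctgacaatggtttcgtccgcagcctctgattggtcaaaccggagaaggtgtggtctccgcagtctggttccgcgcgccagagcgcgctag
Ncl (chr1:86359426-86359555, minus strand): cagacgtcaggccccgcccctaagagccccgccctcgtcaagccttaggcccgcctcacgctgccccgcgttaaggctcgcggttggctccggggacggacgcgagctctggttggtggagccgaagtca
Ddx21 (chr10:62602269-62602398, minus strand): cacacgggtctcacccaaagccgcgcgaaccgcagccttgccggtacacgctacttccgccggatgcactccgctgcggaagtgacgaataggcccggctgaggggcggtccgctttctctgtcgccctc
Wdr43 (chr17:71616115-71616244, plus strand): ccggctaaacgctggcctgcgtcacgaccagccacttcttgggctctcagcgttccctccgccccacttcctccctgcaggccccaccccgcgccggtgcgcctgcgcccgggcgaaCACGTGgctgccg
Nop2 (chr6:125131783-125131912, plus strand): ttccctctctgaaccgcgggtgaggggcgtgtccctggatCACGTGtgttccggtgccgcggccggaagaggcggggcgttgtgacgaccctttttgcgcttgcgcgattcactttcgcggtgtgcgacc
Pes1 (chr11:3963875-3964004, plus strand): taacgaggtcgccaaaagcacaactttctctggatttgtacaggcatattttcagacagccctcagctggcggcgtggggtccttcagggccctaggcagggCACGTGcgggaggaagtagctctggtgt
Tsr1 (chr11:74897980-74898109, plus strand): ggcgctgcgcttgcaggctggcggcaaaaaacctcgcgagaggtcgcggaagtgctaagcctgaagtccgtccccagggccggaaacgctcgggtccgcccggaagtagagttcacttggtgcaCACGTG

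Over the whole 300-base window, from 250 bases before the start to 50 after it, the E-box CACGTG (which reads the same on both strands) was found in 6 of the 36 genes, or 16.7%. These genes were Nop2, Pes1, Tsr1, Wdr43, Utp20 and Mybbp1a. Among the 8663 tested genes with an entry, 12% held the same letters, as did 8.09% of all 27025 genes with a promoter entry. The ETS core CCGGAAG or its reverse complement CTTCCGG was found in 30.6% of the 36 genes and in 19.3% of the tested genes. The GC box GGGCGG or CCGCCC was found in 77.8% against 70.5%, and TATAAA or TTTATA in 5.56% against 8.76%. None of these motifs contains another. Of the 9 genes with an entry that rose after ischemia, only Wdr43 held an E-box in this window. Nop2, Pes1 and Tsr1, which also hold it, did not pass the test. A match of letters is a description and does not mark a bound site.

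Between 15367342 and 44793350 reads were counted per kidney. The table shows abrupt values at low levels, with Gar1 at 128 reads in arm A replicate 3, 96 reads in arm B replicate 1, 19 and 1 reads in arm A replicates 4 and 2, and 0 in the other 8 kidneys. Of the 480 values of the 40 genes, 31 were at 3 reads or fewer, and 28 of these were 0. They belonged to 8 genes, which are reported here without weight on their fold changes. Arm B replicate 4 was the shallowest library and had the lowest summed level of the 40 genes among the ischemic kidneys. Values are therefore also given without it where it matters.

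Some of the ribosome biogenesis genes rose after ischemia. Of the 39 genes tested, 10 rose in arm A and none fell, and 9 rose in arm B and none fell, at an adjusted p below the threshold of 0.05 (edgeR quasi-likelihood test). Over all genes tested, 22.3% passed in arm A (10.5% rose and 11.7% fell) and 22.8% in arm B (10.9% rose and 11.9% fell). The members' shares were 25.6% in arm A and 23.1% in arm B. Without arm B replicate 4, 14 members rose in arm A, with 11.2% of all genes tested in that fit, and 9 rose in arm B, with 9.84%. The genes that rose in both arms were Npm1, Ncl, Nop56, Nop58, Rrp9, Wdr43, Utp14a, Ftsj3 and Ddx21, and 9.07% of all tested genes rose in both. Wdr12 passed in arm A and not in arm B (adjusted p = 0.0297, against 0.0839 in arm B, where DESeq2 gave 0.0401), and a direct comparison of the arms did not pass for it. The 2 comparisons share their control kidneys, so they are not independent.

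The rises were moderate, from 1.69-fold (Npm1) to 2.77-fold (Nop58) in arm A and from 1.58-fold (Ftsj3) to 2.93-fold (Nop58) in arm B. The median log2 fold change of the 39 genes was 0.65 in arm A and 0.57 in arm B, whereas that of all tested genes was -0.02 in both arms. Leaving out 1 kidney moved it to between 0.58 and 0.75 in arm A and between 0.35 and 0.69 in arm B, with 0.35 without arm B replicate 2. In both arms 33 of the 39 genes had a log2 fold change above 0, against 49.1% and 49.2% of all tested genes. The genes that passed had control means of at least 10.04 CPM (normalised reads of a gene on a common library size) and standard errors of at most 0.31 on the log2 scale. Standard errors of the genes that did not pass ranged from 0.17 to 2.19, so a missing call in the rarest genes does not show that they stayed the same.

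**Figure D1:**
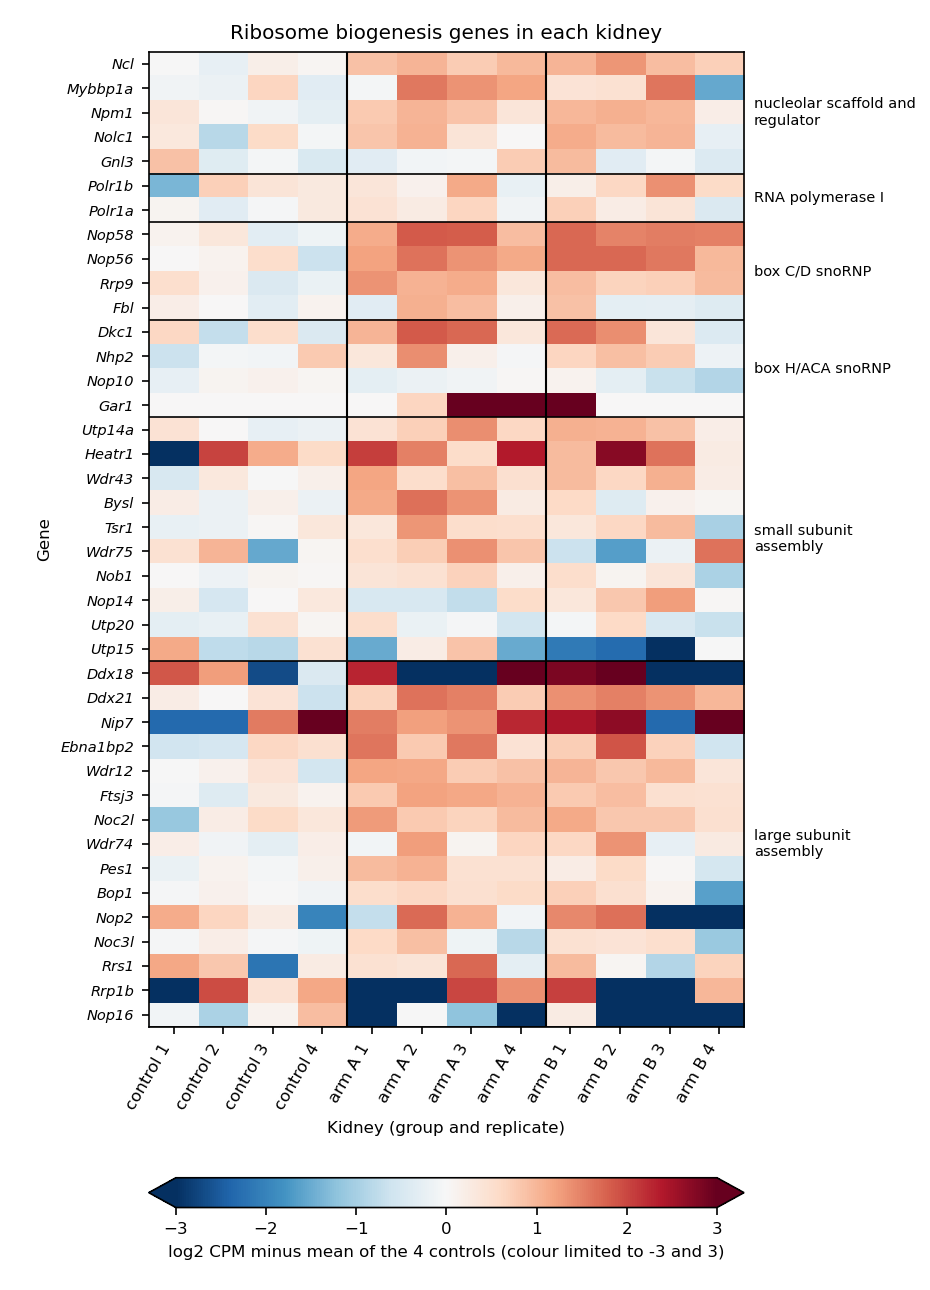
Heat map of the 40 genes (rows, grouped by role) in the 12 kidneys (columns), coloured by log2 CPM minus the mean of the 4 controls, with colours limited to -3 and 3. Red prevails in the 8 ischemic kidneys, except in arm B replicate 4, where 20 of the 40 genes lie above the control mean, against 37 in arm B replicate 1.

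**Figure D2:**
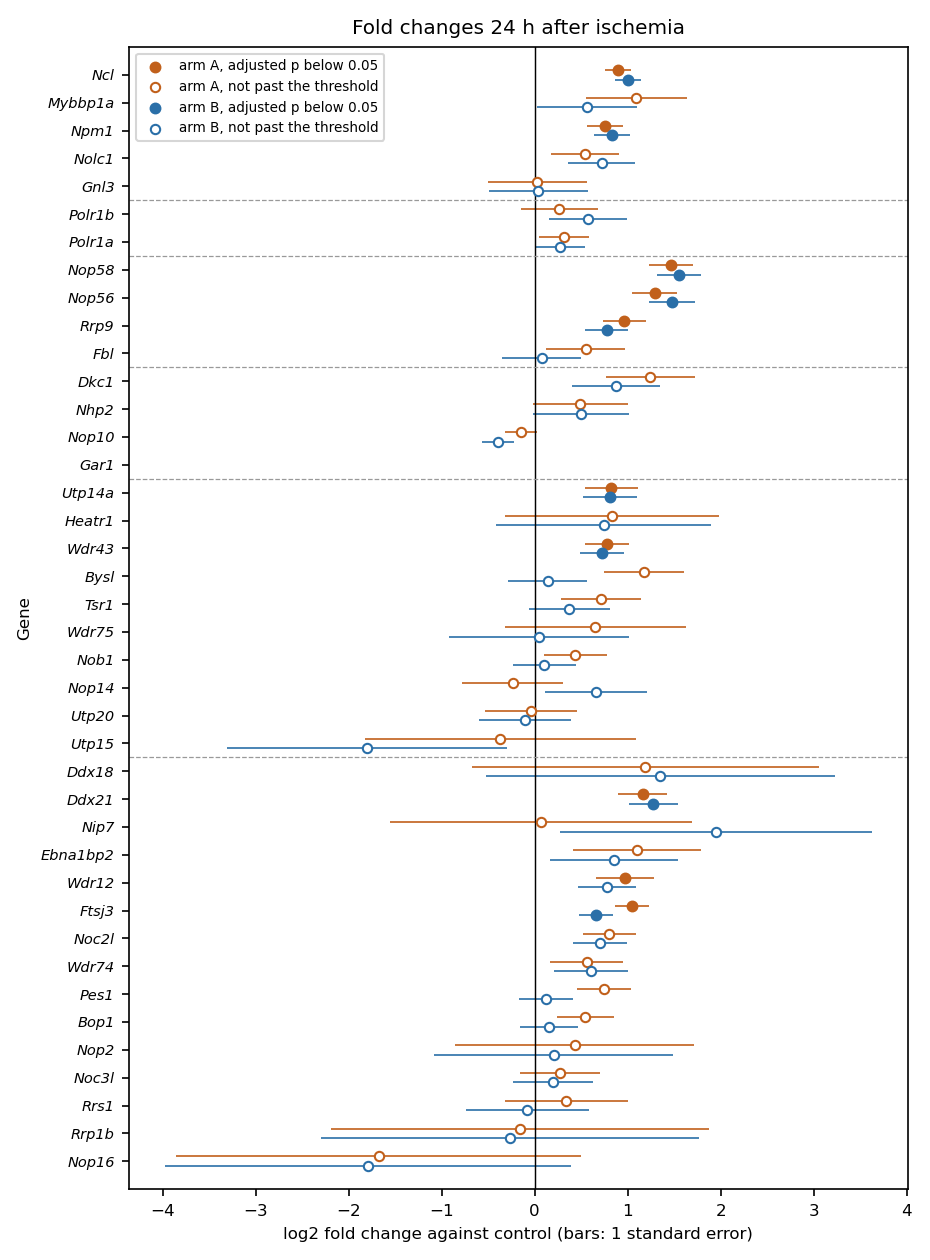
Log2 fold change of each tested gene against control in arm A and arm B, with bars of 1 standard error and filled points for genes past the adjusted threshold of 0.05. The filled points all lie to the right of 0, and the longest bars belong to the genes with the fewest reads.

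Of 5 scaffold proteins of the nucleolus, 2 rose in both arms. Ncl encodes nucleolin, an RNA-binding protein needed for transcription and processing of the ribosomal RNA precursor. Its level was 205, 174, 235 and 217 CPM in the controls, 378, 415, 348 and 404 CPM in arm A and 419, 514, 393 and 338 CPM in arm B. Each of the 8 ischemic kidneys lay above all controls. The log2 fold change was 0.90 ± 0.14 (SE) in arm A (adjusted p = 5.82e-05) and 1.002 ± 0.14 (SE) in arm B (adjusted p = 1.69e-05), or 1.86-fold and 2.003-fold.

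Npm1 encodes nucleophosmin, an abundant chaperone of the outer nucleolar layer. It was measured at 136, 108, 99.2 and 86.9 CPM in the controls, 183, 215, 191 and 136 CPM in arm A and 211, 221, 211 and 122 CPM in arm B. Arm A did not overlap with the controls, though its replicate 4 barely exceeded the highest of them, and arm B replicate 4 lay within the control range. On the log2 scale the change was 0.76 ± 0.19 (SE) in arm A (adjusted p = 0.00646) and 0.83 ± 0.19 (SE) in arm B (adjusted p = 0.00306). It stayed past the threshold when any single kidney was left out (highest adjusted p = 0.0314 in arm A and 0.0184 in arm B).

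The other 3 genes of this role did not pass the test. Gnl3, which encodes the nucleolar GTPase nucleostemin, had the smallest difference, with 11.3, 4.75, 5.82 and 4.44 CPM in the controls, 4.82, 5.78, 5.88 and 10.4 CPM in arm A and 11.8, 4.81, 5.85 and 4.57 CPM in arm B. Control replicate 1 and 1 kidney of each ischemic arm stood at about the same high level, and the groups overlapped fully. This gave a log2 fold change of 0.03 and 0.041, with a standard error of 0.53. Nolc1, a snoRNP chaperone, had values of 0.54 and 0.72 (adjusted p = 0.352 and 0.179). For Mybbp1a, a nucleolar repressor of RNA polymerase I transcription, they were 1.09 and 0.57 (adjusted p = 0.179 and 0.553).

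The catalytic subunits of RNA polymerase I did not pass the test. Polr1a, the largest subunit, was at 24.3, 18.3, 22.5 and 28.4 CPM in the controls, 31.2, 27.4, 36 and 21.6 CPM in arm A and 38.1, 27, 30.4 and 17.2 CPM in arm B. Both ischemic arms overlapped with the controls, and the lowest value of all was that of arm B replicate 4. The fitted log2 change was 0.31 ± 0.27 (SE) in arm A (adjusted p = 0.508) and 0.27 ± 0.27 (SE) in arm B (adjusted p = 0.573), and the latter was 0.072 without arm B replicate 1 and 0.45 without arm B replicate 4. Polr1b, the second largest subunit, was at 4.60, 19.6, 15.6 and 14.6 CPM in the controls, 15.6, 13.2, 26.4 and 10.4 CPM in arm A and 13.6, 18.5, 31.4 and 17.8 CPM in arm B. Its control replicate 1 was far below the other controls, and both ischemic arms reached below and above the other 3 controls, with the highest kidney in arm B. In the fit the log2 change came to 0.27 in arm A and 0.57 in arm B (adjusted p = 0.77 and 0.397). With 1 kidney left out, the change in arm B ranged from 0.26 to 0.79.

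The box C/D snoRNP held the largest called rises, and 3 of its 4 genes (75.0%) rose in both arms, against 9.07% of all tested genes. Nop58, a core protein that holds the guide RNA in the particle, was at 21.4, 25.4, 15.9 and 18.3 CPM in the controls, 43.5, 72, 70.4 and 38.2 CPM in arm A and 66, 56.2, 58 and 57.2 CPM in arm B. The lowest ischemic kidney was above the highest control. The log2 fold change was 1.47 ± 0.23 (SE) in arm A (adjusted p = 8.88e-05) and 1.55 ± 0.23 (SE) in arm B (adjusted p = 4.98e-05), the highest of the called genes in both arms.

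Nop56, its partner in the same particle, was at 21.8, 23, 31 and 13.7 CPM in the controls, 49.6, 66.6, 55 and 47.4 CPM in arm A and 70.7, 71, 64.3 and 42.5 CPM in arm B. Again no ischemic kidney reached down to the controls. On the log2 scale the change was 1.29 ± 0.24 (SE) in arm A (adjusted p = 5.13e-04) and 1.48 ± 0.25 (SE) in arm B (adjusted p = 1.40e-04). Rrp9, a protein specific to the U3 snoRNP that guides the first cuts of the precursor, was at 47.4, 36.9, 24.8 and 29.5 CPM in the controls, 85.5, 69.8, 72.6 and 42.4 CPM in arm A and 63.5, 53.1, 55 and 65.2 CPM in arm B. Arm A replicate 4 lay within the control range and arm B did not overlap with it. This gave a log2 fold change of 0.97 ± 0.23 (SE) in arm A (adjusted p = 0.00435) and 0.77 ± 0.23 (SE) in arm B (adjusted p = 0.0198), and the call in arm B was lost without control replicate 3, control replicate 4 or arm B replicate 1 (highest adjusted p = 0.0805).

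The methyltransferase itself did not pass the test. Fbl, which encodes fibrillarin, was at 10.5, 9.20, 7.29 and 9.77 CPM in the controls, 7.24, 19, 17.3 and 10.2 CPM in arm A and 16.7, 7.40, 7.59 and 6.98 CPM in arm B. In each ischemic arm some kidneys were near 17 to 19 CPM, 2 in arm A and 1 in arm B, and the rest stood at the control level or below. The fitted log2 change was 0.55 ± 0.42 (SE) in arm A (adjusted p = 0.447) and 0.077 ± 0.42 (SE) in arm B (adjusted p = 0.945). Nop56, Nop58, Ncl and Gnl3 are host genes of snoRNAs, which overlap part of their annotated exons. Each overlap covered at most 2.4% of the exonic length of the host gene, though a gene can hold several. In Nop56 the single overlaps were 2.4%, 2.1%, 1.8% and 1.7%, which add up.

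**Figure D3:**
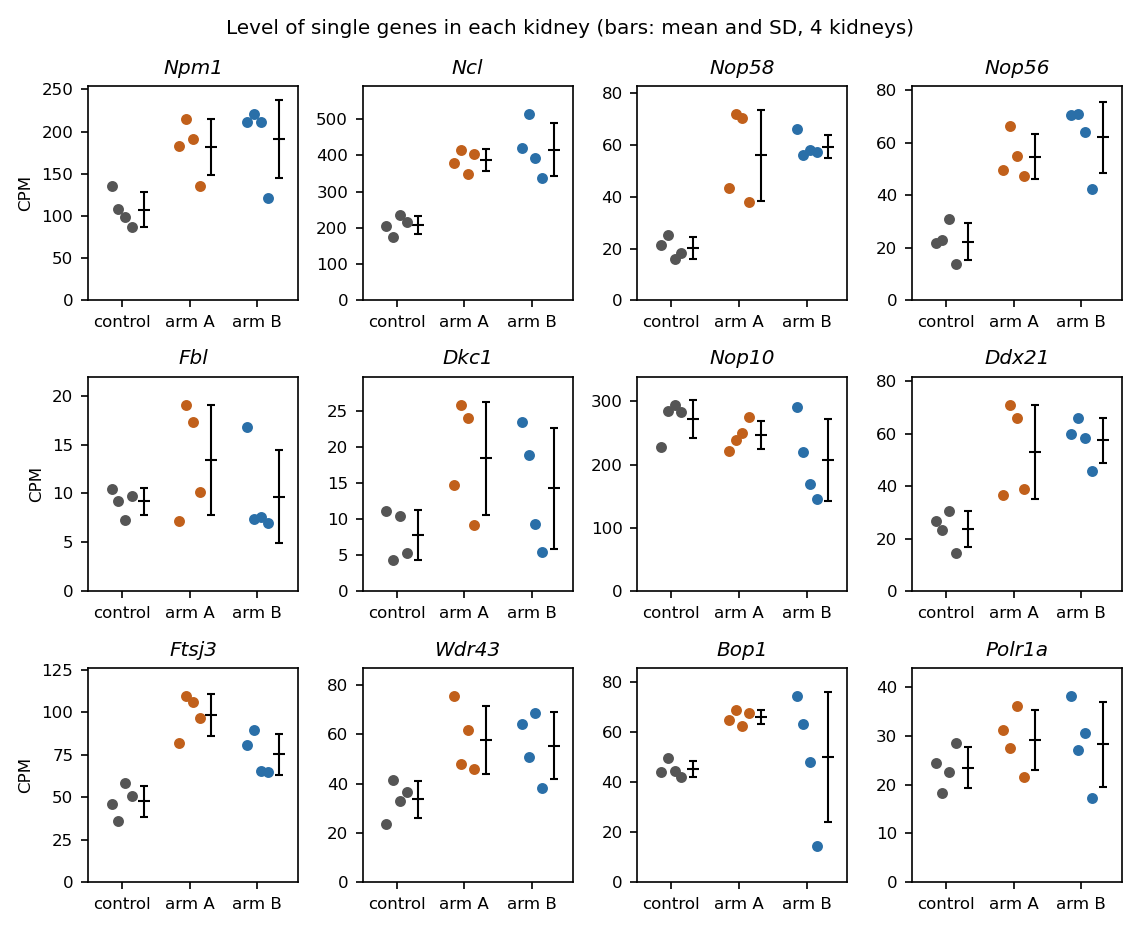
Level in CPM of 12 genes in each kidney (points), by group, with the mean and SD of 4 kidneys beside them, each panel on its own axis from 0. Ncl, Nop58, Nop56, Ddx21 and Ftsj3 separate all ischemic kidneys from the controls, whereas Npm1, Fbl, Dkc1, Nop10, Wdr43, Bop1 and Polr1a overlap with the controls in at least arm B.

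To see whether partners of a particle moved unequally, the log2 ratio of their CPM was compared in each kidney. These pairs were chosen after the values were seen. Nop58 over Fbl averaged 1.13 ± 0.24 (SD, n = 4) in the controls, 2.11 ± 0.32 in arm A and 2.72 ± 0.49 in arm B. The ratio did not overlap between the controls and either arm (exact permutation test, two-sided, p = 0.0286, the smallest that 4 against 4 kidneys can give). After adjustment over the 12 comparisons made, it did not pass (adjusted p = 0.114), and neither did any other. Nop56 over Fbl differed by 0.88 and 1.52 on the log2 scale (exact permutation p = 0.0857 and 0.0571).

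No gene of the box H/ACA snoRNP passed the edgeR test over the 3 groups. Dkc1, the gene of the pseudouridine synthase dyskerin, was at 11.1, 4.39, 10.4 and 5.33 CPM in the controls, 14.8, 25.8, 24 and 9.15 CPM in arm A and 23.5, 19, 9.38 and 5.39 CPM in arm B. In both ischemic arms 2 kidneys or more were well above every control, and arm A replicate 4 and arm B replicates 3 and 4 were within the control range. In the fit the log2 change came to 1.24 ± 0.48 (SE) in arm A (adjusted p = 0.0721) and 0.88 ± 0.48 (SE) in arm B (adjusted p = 0.221), and it passed in arm A when arm B replicate 4 was left out (adjusted p = 0.0361) or only the 2 groups compared were fitted (adjusted p = 0.0348).

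Nop10, a small protein that bridges dyskerin and the guide RNA, had the highest level per kilobase of exon among the 40 genes and did not pass the test. Its level was 228, 285, 294 and 283 CPM in the controls, 222, 239, 251 and 276 CPM in arm A and 292, 220.4, 169.5 and 147 CPM in arm B. Arm B replicate 1 was within the control range and the other 3 kidneys of arm B were below it, whereas 3 of the 4 kidneys of arm A were within it. The log2 fold change was -0.14 ± 0.17 (SE) in arm A (adjusted p = 0.683) and -0.40 ± 0.17 (SE) in arm B (adjusted p = 0.114). Without arm B replicate 1, the highest kidney of that arm, the difference in arm B passed the threshold as a fall (adjusted p = 0.0067). Nop10 alone made up 25.9% of the summed CPM of the 40 genes in the controls.

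Nhp2, another core protein of the particle, had log2 fold changes of 0.49 and 0.499 (adjusted p = 0.617 and 0.59), which ranged from 0.058 to 0.83 and from 0.31 to 0.83 when 1 kidney was left out, with 0.058 without arm A replicate 2. Gar1, the last of the core proteins, was at 0 in the controls and in 4 of the 8 ischemic kidneys, and no fold change is given. The ratio of Dkc1 to Nop10 was higher by 1.38 in arm A and by 1.20 in arm B on the log2 scale (exact permutation p = 0.0857 and 0.0571). That of Nhp2 to Nop10 was higher by 0.60 and 0.98 (p = 0.229 and 0.0571 by the same exact test), and the difference in arm A was 0.27 without arm A replicate 2.

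Among 10 factors of small subunit assembly, 2 (20.0%) rose in both arms, against 9.07% of all tested genes. Utp14a, a protein of the small subunit processome that activates a helicase, was at 21.7, 16.1, 13.5 and 14.1 CPM in the controls, 21.8, 26.6, 42.5 and 24.7 CPM in arm A and 33.5, 33.3, 29.5 and 18.3 CPM in arm B. Arm A replicate 1 barely exceeded the highest control, and arm B replicate 4 lay within the controls. On the log2 scale the change was 0.82 ± 0.29 (SE) in arm A (adjusted p = 0.0449) and 0.81 ± 0.29 (SE) in arm B (adjusted p = 0.048), and the call was lost in 9 of the 12 fits that left out a kidney. It was also lost without the low-count filter and with a replicate block in both arms, and in arm B when only the 2 groups compared were fitted.

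Wdr43, another processome protein, was at 23.5, 41.3, 32.9 and 36.8 CPM in the controls, 75.4, 47.8, 61.8 and 45.7 CPM in arm A and 64, 50.7, 68.5 and 38.3 CPM in arm B. Arm A lay above the controls and arm B replicate 4 within them. This gave a log2 fold change of 0.78 ± 0.24 (SE) in arm A (adjusted p = 0.0213) and 0.72 ± 0.24 (SE) in arm B (adjusted p = 0.0327). The call was lost in 4 of 12 fits without 1 kidney in arm A and in 6 of 12 in arm B. In arm B it was also lost with a replicate block (adjusted p = 0.0602).

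Bysl, a late factor of the small subunit, differed between the arms at an unadjusted p only. It was at 5.3 to 7.05 CPM in the controls, 7.16 to 19.2 CPM in arm A and 4.62 to 9.23 CPM in arm B. Its log2 fold change was 1.18 in arm A (adjusted p = 0.0582) and 0.14 in arm B, and it passed in arm A with DESeq2 (adjusted p = 0.0193), with a filter at 1 CPM and with 2 groups fitted. Nob1, the endonuclease that makes the end of the 18S RNA, did not overlap with the controls in arm A (14.3 to 20.8 CPM, with 11.5 to 13.6 CPM in the controls), without passing the test (adjusted p = 0.446).

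At the low end, Utp15, a processome protein, was at 4.17, 1.06, 1.003 and 2.59 CPM in the controls, 0.603, 2.18, 3.44 and 0.602 CPM in arm A and 0.370, 0.316, 0 and 1.84 CPM in arm B. The highest value was a control and the lowest were in arm B, and the groups overlapped. The fitted log2 change was -0.37 ± 1.46 and -1.80 ± 1.505. Nop14, Wdr75, Utp20, Heatr1 and Tsr1, which act in the processome or just after it, had log2 fold changes from -0.24 to 0.83 in arm A and from -0.10 to 0.74 in arm B, and none passed. Exons of Tsr1 overlap those of Srr on the opposite strand over 32.3% of their length, those of Utp14a overlap the long non-coding RNA 9530027J09Rik over 11.5%, and those of Bysl overlap Ccnd3 over 9.4%. Whether strand was used in counting is not given in the sources used here, so reads of these pairs may not be told apart.

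Among 15 factors of large subunit assembly, 3 (20.0%) rose in arm A and 2 of these (13.3%) also in arm B. Over all tested genes 10.5% and 10.9% rose, so the share in arm B is near the background. Ddx21 encodes an RNA helicase of the nucleolus. It was at 26.6, 23.3, 30.5 and 14.7 CPM in the controls, 36.5, 70.9, 66.1 and 39 CPM in arm A and 59.7, 66.1, 58.4 and 45.7 CPM in arm B. All ischemic kidneys were above all controls. In the fit the log2 change came to 1.16 ± 0.26 (SE) in arm A (adjusted p = 0.00241) and 1.28 ± 0.26 (SE) in arm B (adjusted p = 0.00112).

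Ftsj3, an RNA methyltransferase that processes the precursor, was at 46, 36.3, 58.2 and 50.6 CPM in the controls, 81.8, 109.6, 106 and 96.5 CPM in arm A and 81, 89.5, 65.6 and 65 CPM in arm B. Neither arm overlapped with the controls, and the arms overlapped with each other. The log2 fold change was 1.04 ± 0.18 (SE) in arm A (adjusted p = 2.45e-04) and 0.66 ± 0.18 (SE) in arm B (adjusted p = 0.0121). In arm B the call was lost without control replicate 2 or arm B replicate 2 (highest adjusted p = 0.0558).

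The PeBoW complex of Pes1, Bop1 and Wdr12 is needed to process the large subunit RNA. Wdr12 was at 9.73, 10.7, 13 and 6.69 CPM in the controls, 22.2, 22.1, 16.5 and 18.1 CPM in arm A and 19.97, 17.1, 19.3 and 12.5 CPM in arm B. Arm A was above the controls, and arm B replicate 4 was just below the highest control. On the log2 scale the change was 0.97 ± 0.31 (SE) in arm A (adjusted p = 0.0297) and 0.78 ± 0.31 (SE) in arm B (adjusted p = 0.0839). The call in arm A was lost in 5 of 12 fits without 1 kidney (highest adjusted p = 0.0987) and without the low-count filter. Bop1 was tight in arm A, with 62.3 to 68.8 CPM against 41.98 to 49.5 CPM in the controls. In arm B it was wide, at 74.3, 63.1, 48.1 and 14.6 CPM, with the lowest value in replicate 4. Its log2 fold change in arm B was 0.15, and ranged from -0.12 to 0.46 when 1 kidney was left out. Pes1 was at 13.7 to 17.5 CPM in the controls, 21.8 to 32.3 CPM in arm A and 10.9 to 23.6 CPM in arm B. For both, arm A did not overlap with the controls, and the test was not passed (adjusted p = 0.25 and 0.0728). Without arm B replicate 4, both passed in arm A, at 0.0233 and 0.0457, as did Dkc1 and Noc2l. Both also passed in arm A when only the 2 groups compared were fitted (adjusted p = 0.0117 and 0.0317), and Pes1 with DESeq2. The ratio of Pes1 to Bop1 differed by 0.18 in arm A and 0.16 in arm B on the log2 scale (exact permutation p = 0.257 and 0.8). These differences ranged from 0.098 to 0.28 and from -0.16 to 0.38 when 1 kidney was left out. The ratio of Wdr12 to Bop1 differed by 0.45 and 0.87 (exact permutation p = 0.0857 in both), and the latter ranged from 0.503 to 1.06 when 1 kidney was left out.

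Noc2l, a partner of the early large subunit particle, was at 10.9 to 35.8 CPM in the controls, 37.99 to 58.3 CPM in arm A and 33.8 to 53.4 CPM in arm B. Its log2 fold change was 0.80 ± 0.29 (SE) in arm A (adjusted p = 0.0507) and 0.70 ± 0.29 (SE) in arm B (adjusted p = 0.0883), with a call in arm A under 5 of 7 alternative fits (adjusted p = 0.0287 to 0.0421), and its exons overlap those of Samd11 on the other strand over 20.9% of their length. Nop16 had the lowest mean change of this role, at 1.10, 0.572, 1.27 and 2.27 CPM in the controls, 0, 1.16, 0.462 and 0 CPM in arm A and 1.41, 0, 0 and 0.0635 CPM in arm B. It was present in every control and at 0 in 4 ischemic kidneys, and the log2 fold change was -1.68 ± 2.18 and -1.79 ± 2.19. Ddx18, a helicase related to Ddx21, had the highest mean change, at 2.59, 1.66, 0.0386 and 0.470 CPM in the controls, 3.49, 0, 0 and 7.41 CPM in arm A and 5.08, 7.08, 0 and 0 CPM in arm B. Each ischemic arm had 2 kidneys above all controls and 2 at 0, and the log2 fold change of 1.19 ± 1.87 in arm A and 1.35 ± 1.87 in arm B did not pass.

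The other genes of this role are Nop2, Wdr74, Rrp1b, Rrs1, Ebna1bp2, Noc3l and Nip7. Their log2 fold changes ranged from -0.16 to 1.10 in arm A and from -0.26 to 1.95 in arm B, with standard errors of up to 2.03, and none passed. Nop2, Rrp1b and Nip7 each had at least 1 kidney at 0.

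Calls do not show how fully the groups separate. In arm A, 14 of the 39 tested genes were higher than every control in every kidney, and 12.6% of all tested genes were. In arm B it was 6 of the 39 (15.4%), against 11.6% of all tested genes, which is near the background. Without arm B replicate 4 it was 15 of the 39, against 15.03% of all tested genes. That kidney was singled out in part for its low level of these genes, so this count adds no support. Without any other single kidney of arm B or of the controls it was 6 to 8 of the 39. No tested member was lower in every kidney of either arm, against 15.7% and 15.1% of all tested genes.

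The 2 ischemic arms were compared to ask whether the state of the mouse during clamping left a trace in these genes. No member passed the test, and over all tested genes 0.00857% did. This was 1 gene, Slc5a12, a proximal tubule transporter and no member of the list, which was at 9.34 to 17.5 CPM in arm A, 28.4 to 75.2 CPM in arm B and 119 to 153 CPM in the controls (adjusted p = 0.0328 between the arms). Genes named here that passed against control in 1 set and not in the other (Wdr12, Ltv1, Nat10, Mak16, Mlxip, Rpl5, Rpl23, Rps27a and Cdkn1a) did not pass between the arms (smallest adjusted p = 0.981), so no difference was shown for them. At an unadjusted p below 0.05 there were 3 of 39 (7.69%), namely Bysl (log2 fold change of arm B minus arm A -1.04), Pes1 (-0.62) and Ftsj3 (-0.39), whereas 5.03% of all tested genes had such a p. The smallest adjusted p was 0.941. Of the 39 genes, 13 had a higher fitted level in arm B, against 49.2% of all tested genes. For the 4 genes with the smallest standard error of this difference, it was 0.11 for Ncl, -0.25 for Nop10, -0.39 for Ftsj3 and 0.08 for Npm1 on the log2 scale.

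Summed over the 40 genes, the level separated ischemic from control kidneys. The sum was 1031, 1033, 1116 and 1037 CPM in the controls, 1570.2, 1789, 1676 and 1496 CPM in arm A, and 1796, 1771, 1529 and 1156 CPM in arm B. Arm B replicate 4 was the lowest ischemic kidney and lay just above the highest control. Without it, the lowest was arm A replicate 4. Much of the difference came from 1 gene, since Ncl accounted for 30.9% of the rise of the sum in arm A and 40.9% in arm B, whereas Nop10 lowered it. In the controls the sum was 0.103% to 0.112% of the normalised reads.

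**Figure D4:**
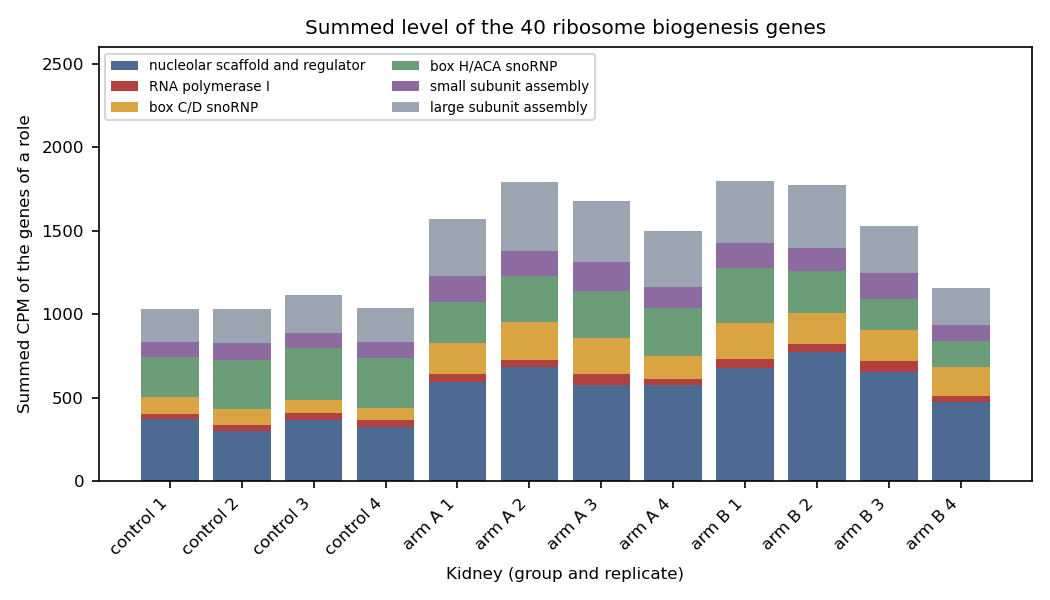
Summed CPM of the 40 genes in each kidney, stacked by role. Bars of the controls reach 1031 to 1116 CPM and those of the ischemic kidneys 1156 to 1796 CPM, with the dark blue segment of the nucleolar scaffold proteins growing from 300.3 to 374 CPM in the controls to 477 to 774 CPM after ischemia.

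Levels of different genes can be compared only per length. The length used here joins the exons of all annotated transcripts of a gene. It can exceed the length of the RNA present and so lower the level per kb. Per kilobase of annotated exon, the controls had the highest mean level for Nop10 (246 CPM per kb), followed by Npm1 (40.3), Ncl (20.4) and Bop1 (15.2 CPM per kb). In both ischemic arms Nop10 was again the highest. Nop58, which had the largest called rise, was at 1.88 CPM per kb in the controls and reached 5.21 in arm A and 5.52 CPM per kb in arm B. Its partner Nop56 was at 5.45 in the controls, 13.3 in arm A and 15.2 CPM per kb in arm B. Their control means were close before division by length (20.3 and 22.4 CPM), with lengths of 10758 and 4099 bases. The contrast between these 2 genes per kb therefore rests on the annotated length. For Fbl the same values were 2.18, 3.19 and 2.30 CPM per kb.

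Other factors of the same pathway were counted in the same fit. A list of 152 such factors had 138 genes in the table and 124 tested, of which 14 (11.3%) rose and 1 fell in arm A and 13 (10.5%) rose and 1 fell in arm B, with 12 rising in both. These shares are near those of 10.5% and 10.9% that rose over all tested genes. The count in arm A was 8 without control replicate 4 and 9 without control replicate 2 or arm A replicate 3. Their median log2 fold change was 0.35 in arm A and 0.29 in arm B. Among 13 further subunits and factors of RNA polymerase I, none passed in either arm.

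For the small subunit, 5 of 42 tested factors rose in arm A (11.9%) and 3 in arm B (7.14%), which is close to the background. The 3 largest were Nop9, Rrp12 and Cirh1a, and the 2 others Ltv1 and Nat10 passed in arm A and not in arm B. Rrp12, an export factor of both subunits, was at 19.4, 17.8, 27.4 and 14.6 CPM in the controls, 73.6, 70.5, 52.1 and 45.3 CPM in arm A and 58.8, 54, 61.8 and 34 CPM in arm B. All ischemic kidneys were above all controls, with a log2 fold change of 1.61 ± 0.25 (SE) in arm A (adjusted p = 6.99e-05) and 1.40 ± 0.25 (SE) in arm B (adjusted p = 2.96e-04). The log2 fold change of Cirh1a, the processome protein also known as Utp4, was 0.97 and 0.79, that of Nop9 1.99 and 3.31, that of Ltv1 0.76 and 0.61, and that of Nat10, an RNA acetyltransferase, 0.58 and 0.504.

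For the large subunit, 8 of 45 tested factors rose in arm A (17.8%) and 9 in arm B (20.0%). By the mean of both arms, the largest called rise was that of Eif6, which keeps the large subunit from joining the small one too early. It was at 11.5, 20.1, 27.4 and 22.4 CPM in the controls, 93.5, 91.3, 98.7 and 65.7 CPM in arm A and 72.9, 101, 81.3 and 42.3 CPM in arm B, with every ischemic kidney above every control, and its log2 fold change was 2.10 ± 0.27 (SE) in arm A (adjusted p = 8.69e-06) and 1.87 ± 0.27 (SE) in arm B (adjusted p = 3.25e-05). Tex10, whose fitted change in arm B was above that of Eif6, and Mak16 followed, with log2 fold changes of 1.57 and 2.03 for Tex10 and of 1.68 and 1.75 for Mak16, which passed in arm B and not in arm A (adjusted p = 0.0592 and 0.0485). Las1l, which processes the spacer of the precursor in the same complex as Tex10 and Senp3, was singled out after its values were seen. It was at 22.4, 22.8, 34 and 23.4 CPM in the controls, 63, 59.7, 68.4 and 64.6 CPM in arm A and 64.7, 93.2, 67 and 128 CPM in arm B, again without overlap. Its log2 fold change was 1.32 in arm A and 1.78 in arm B. The smallest called changes were those of Senp3, with 0.69 and 0.65, of Ddx27, with 0.63 and 0.64, and of Mdn1, with 0.84 and 0.93.

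Of 12 tested assembly factors of snoRNPs, only Ruvbl2, an ATPase of the chaperone that loads the box C/D proteins, rose (log2 fold change 1.11 ± 0.23 (SE) in arm A (adjusted p = 0.00108) and 0.76 ± 0.23 (SE) in arm B (adjusted p = 0.0193)). Of 12 tested genes of the RNA exosome and its cofactors, only Skiv2l2, the helicase that feeds RNA to the nuclear exosome, changed, and it fell. It was at 51.4, 70.4, 85.1 and 66.4 CPM in the controls, 30.1, 25.8, 27.2 and 37 CPM in arm A and 40.01, 51.6, 39.7 and 18 CPM in arm B. Arm A lay below all controls and arm B overlapped by less than 1 CPM. This gave a log2 fold change of -1.19 ± 0.26 (SE) in arm A (adjusted p = 0.00232) and -0.87 ± 0.26 (SE) in arm B (adjusted p = 0.0205).

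**Figure D5:**
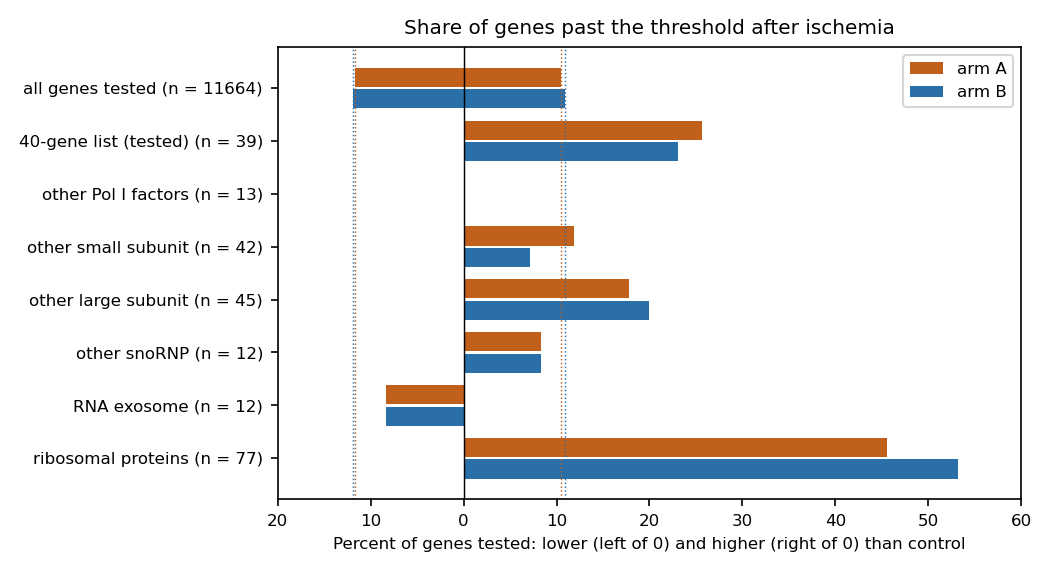
Share of tested genes past the adjusted threshold of 0.05 that were higher (right of 0) or lower (left of 0) than control, in percent, for arm A and arm B, with dotted lines at the shares over all tested genes. The 40-gene list reaches 25.6% and 23.1%, the ribosomal proteins extend furthest, and the polymerase I list is empty.

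The product of the pathway is the ribosome, and many of its own protein genes rose. Of 81 genes of cytosolic ribosomal proteins, 77 were tested, of which 35 (45.5%) rose in arm A and 41 (53.2%) in arm B, 33 of them in both, and none fell. Their median log2 fold change was 0.48 and 0.51, with 0.65 and 0.57 for the 39 biogenesis genes. Among the largest called rises were those of Rpl12 (1.28 and 1.10) and Rpl13 (1.02 and 0.71). The smallest were those of Rpl32 (0.31 and 0.29), Rps27a (0.34 and 0.43) and Rpl23 (0.32 and 0.45), of which Rps27a and Rpl23 passed in arm B and not in arm A. Rpl26, Rpl30, Rpl34 and Rps27 had 3 reads or fewer in all kidneys. Ribosomal protein genes have many processed pseudogenes with nearly the same sequence, so their counts are uncertain.

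Of the MYC network, 11 genes were tested. Myc itself rose most, at 6.90, 2.68, 6.09 and 4.18 CPM in the controls, 47.7, 58.9, 64.4 and 61.7 CPM in arm A and 52.1, 44.7, 63.4 and 40.3 CPM in arm B. Every ischemic kidney was several times as high as the highest control. The fitted log2 change was 3.56 ± 0.29 (SE) in arm A (adjusted p = 2.00e-08) and 3.35 ± 0.29 (SE) in arm B (adjusted p = 4.16e-08). Mxi1, which opposes MYC at the same letters, fell from 79.9 to 106 CPM in the controls to 44.8 to 64.99 CPM in arm A and 37.7 to 53.4 CPM in arm B (-0.90 and -1.10, adjusted p = 8.46e-04 and 1.29e-04). Mlx and Mlxipl, which together sense glucose, fell in both arms (Mlx -1.12 and -1.12, Mlxipl -1.68 and -1.20). Mlxip passed in arm A (1.06, against 0.89 in arm B with an adjusted p of 0.055). Max, the partner of MYC, had changes of -0.068 and 0.082 with a standard error of 0.12. Mycn, Mycl1, Mxd4, Mnt and Mga did not pass either, with log2 fold changes of -0.40 to 0.56 in arm A and -0.69 to 0.93 in arm B.

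When ribosome assembly fails, free Rpl5 and Rpl11 are known to bind MDM2 and to stabilise p53. Of 12 tested genes of this nucleolar stress list, 1 rose in arm A and 3 in arm B. Rpl11 rose in both (0.49 and 0.66, adjusted p = 7.77e-04 and 3.19e-05), as a gene that also counts among the ribosomal proteins. Rpl5 passed in arm B and not in arm A (0.36 and 0.66, adjusted p = 0.0598 and 0.00107). Cdkn1a, the p53 target that halts the cell cycle, also passed in arm B and not in arm A, with 0 CPM in the controls, 0, 0, 0.462 and 2.05 CPM in arm A and 1.45, 5.57, 5.12 and 0 CPM in arm B. Its fitted fold change has no meaning against controls at 0 and is not given. Trp53, Mdm2, Mdm4, Rrp8, Ccng1, Bax, Bbc3, Zmat3 and Sesn2 did not pass, with log2 fold changes of -0.29 to 0.98 in arm A and -0.30 to 1.25 in arm B.

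Levels of cell type markers also differed from the controls. In RNA of mixed kidney tissue, fewer cells of a type, less RNA per cell and the part of the kidney sampled cannot be told apart. All 10 proximal tubule markers fell in both arms, their summed level going from 16844 to 17951 CPM in the controls to 2174 to 3583 CPM in arm A and 1679 to 4539.6 CPM in arm B. Of 8 markers of injured tubules, 7 rose in both arms, with a sum of 28.6 to 35.4 CPM in the controls, 758 to 1114 CPM in arm A and 808 to 1345 CPM in arm B. Of 12 markers of proliferating cells, 7 were tested and 4 rose in both arms, and their sum went from 21.5 to 32.6 CPM to 72.6 to 113 CPM in arm A and 91.8 to 146 CPM in arm B. Fibroblast markers rose for 2 of 4 tested genes, and the 5 markers summed to 482 to 622 CPM in the controls, 945 to 2650 CPM in arm A and 1138 to 2393 CPM in arm B. The podocyte markers rose for 3 of 5 genes in both arms. Of 5 thick ascending limb markers 2 fell in both arms and none rose, with a sum of 1819 to 1924 CPM in the controls, 291 to 393 CPM in arm A and 269 to 301 CPM in arm B apart from its replicate 4, which stood at 779 CPM. The distal convoluted tubule markers summed to 1302 to 1856 CPM in the controls, 846 to 1377 CPM in arm A and 767 to 1254 CPM in arm B, those of the collecting duct to 121 to 177 CPM, 94.9 to 113 CPM and 68.2 to 218 CPM, and those of the endothelium to 118 to 139 CPM, 62.1 to 119 CPM and 50.3 to 98.9 CPM. The part of these cell types in the rise of the ribosome biogenesis genes was not tested. The markers of neutrophils summed to at most 0.44 CPM in any kidney and those of lymphocytes to 0 in all ischemic kidneys, and the sum of 7 macrophage markers was 43.6 to 66.7 CPM in the controls against 11.5 to 43.3 CPM after ischemia. Of the 5 macrophage markers tested, Csf1r, which made up most of this sum in the controls, fell in both arms, Cd14, at 0 in the controls, rose in both, and Ptprc, Cd68 and Itgam did not pass.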

How the data were processed

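Poly(A) RNA from parts of 12 kidneys was sequenced as single reads from stranded TruSeq libraries. Per the methods, the middle of each kidney was fixed for histology and the rest was frozen. Per the labels and methods, reads were mapped to mm10 with STAR and counted per gene with HTSeq. Versions, annotation and strand setting are not given in the sources used here. The deposited table holds raw counts, not normalised by the authors. From these, genes were filtered (filterByExpr, minimum count 10, minimum total 15) and scaled by TMM, and 11664 were tested with edgeR 4.0.16 (R 4.3.3) by a quasi-likelihood F-test over 3 groups, two-sided, with Benjamini-Hochberg adjustment over all tested genes and a threshold of 0.05. CPM are TMM-normalised. The common biological coefficient of variation was 0.76. Total counts per kidney were 20364386 to 39155807 in controls, 16814285 to 44793350 in arm A and 15367342 to 29905140 in arm B. Standard errors are the log2 fold change divided by the square root of F. Code was tested on simulated data.

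The members and gene lists were chosen with earlier results of these data known, so no list received a test of its own. Named genes follow a rule: the best known members, the highest and lowest mean change of each role, and for other lists the 3 largest and 3 smallest called changes, of which 1 is not reported here. Alternatives were DESeq2 1.42.0, limma-trend 3.58.1, RLE scaling, other filters, fits of 2 groups, a replicate block and leaving out each kidney. The labels give 1 kidney per sample and do not state whether kidneys of different groups came from the same mouse, so p-values measure the spread between these samples. Gene positions follow mm10.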

Additional observations from a re-analysis of the deposited data

Results flagged for a closer look

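In 8 of 120 groups of 4 kidneys (40 genes in 3 groups), 1 kidney stood apart from the other 3 by Dixon's criterion at the 95% level, which chance alone gives in about 1 of 20 groups. Arm B replicate 4 was the lowest of its arm for Npm1 at 122 CPM, where the other 3 were at 211, 211 and 221 CPM, and for Noc3l at 4.82 CPM. Arm B replicate 1 was the highest of its arm for Fbl at 16.7 CPM, for Gar1 at 3.23 CPM and for Nop16 at 1.41 CPM. Arm A replicate 4 was the highest of its arm for Nop14 at 7.47 CPM, and arm A replicate 2 for Tsr1 at 19.5 CPM. Control replicate 1 was the lowest control for Nop10 at 228 CPM, with the other controls between 283 and 294 CPM. No member changed in opposite directions in the 2 arms with both past the threshold.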

How the results depend on the processing

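Counts of called members, their direction and the median log2 fold changes stayed within 1.5 times the values above under DESeq2, limma-trend, RLE scaling, no low-count filter, a filter at 1 CPM (exceeded in 4 kidneys), fits of 2 groups and a replicate block, with 9 to 14 called members in arm A (14 with 2 groups, 13 with DESeq2) and 7 to 10 in arm B. The comparison of the 2 arms gave 0 called members under each of these 7 alternatives. Same-numbered kidneys did not deviate together (correlations -0.06 to 0.05), which cannot exclude that some of them came from the same mouse. The replicate block left 9 called members in arm A and 7 in arm B. Utp14a lost its call without the filter and with the block in both arms and with 2 groups in arm B, Wdr43 with the block in arm B, and Wdr12 without the filter in arm A (adjusted p = 0.063). Members that gained a call were Dkc1, Bop1, Pes1 and Bysl in arm A with 2 groups, Pes1 and Bysl in arm A and Wdr12 in arm B with DESeq2, Bysl in arm A with the 1 CPM filter, and Noc2l in arm A under 5 of the 7 alternatives.

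Leaving out 1 kidney at a time gave 8 to 14 called members in arm A, with 14 only without arm B replicate 4, and 6 to 9 in arm B. Called falls in arm B ranged from 0 to 1, the 1 being Nop10 without arm B replicate 1. Of the other biogenesis factors, 8 to 16 rose in arm A, with 9 without control replicate 2, 8 without control replicate 4 and 9 without arm A replicate 3. In arm B, 0 to 1 of them fell (0 without control replicate 3), and 0 to 1 ribosomal protein gene fell (1 without arm A replicate 4). The causes were not tested.

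Signs turned only in members that were not called. With limma-trend the log2 fold change in arm B was -0.016 for Fbl, -0.21 for Wdr75, -1.78 for Nop2, -0.077 for Bop1, 0.20 for Rrs1 and -0.12 for Ddx18, and in arm A it was -0.24 for Ddx18. With the replicate block it was -0.25 for Wdr75 and -0.73 for Nop2 in arm B and 0.079 for Utp15 in arm A. The causes of these turns were not tested.

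Across the fits without 1 kidney each, the log2 value crossed 0 for 22 comparisons of single members. In arm A the ranges were -0.044 to 1.90 for Ddx18, -0.28 to 0.43 for Gnl3, -0.34 to 1.68 for Nip7, -0.017 to 0.49 for Noc3l, -0.083 to 0.82 for Nop2, -0.052 to 0.50 for Polr1b, -1.11 to 0.49 for Rrp1b, -0.20 to 0.71 for Rrs1, -0.96 to 0.14 for Utp15 and -0.25 to 0.13 for Utp20. In arm B they were -0.12 to 0.46 for Bop1, -0.075 to 0.26 for Bysl, -0.35 to 0.20 for Fbl, -0.39 to 0.44 for Gnl3, -0.046 to 0.90 for Mybbp1a, -0.089 to 0.33 for Nob1, -0.50 to 0.62 for Nop2, -0.085 to 0.29 for Pes1, -1.51 to 0.40 for Rrp1b, -0.45 to 0.28 for Rrs1, -0.44 to 0.061 for Utp20 and -1.005 to 0.41 for Wdr75. The log2 ratio of Pes1 to Bop1 in arm B went from -0.16 to 0.38. These alternatives for ratios were added after seeing the data. The 8 members with values at 3 reads or fewer had standard errors of up to 2.19. The part of depth in these low values was not tested.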
